A study of Mus musculus with 6 samples.

Results

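Selenoproteins carry selenocysteine, the amino acid in which selenium takes the place of the sulfur of cysteine. It is inserted at UGA codons that would otherwise end translation. The genes described here are 9 selenoprotein genes, selected by name from the 20822 genes of the count table: Selenop, Gpx1, Gpx3, Gpx4, Selenow, Selenok, Selenof, Selenot and Txnrd1. They are 9 of the 24 genes with an annotated selenocysteine codon in the mouse annotation. Selenop was singled out because its level in endothelial cells (ECs) differed between genotypes in earlier results of the same data. Its EC values between genotypes are therefore given as a description without a test.

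Drop-seq was used to count transcripts of single retinal cells from mice with oxygen-induced retinopathy (OIR) at postnatal day 14. In this model pups are kept in 75% oxygen from day 7 to day 12, which closes retinal vessels, and are then returned to room air, in which new vessels grow. The control group was eNOS+/+ (C57BL/6J, 3 replicates) and the other group was eNOS-/- (mice homozygous for a disrupted Nos3 gene, backcrossed for 15 generations to C57BL/6J, 3 replicates). Nos3 encodes endothelial nitric oxide synthase. Both groups had the same oxygen exposure and CD1 fostering mothers, each replicate pooled 3 to 5 retinas, and cells were enriched on the endothelial surface protein CD31. The disrupted allele is constitutive, so it was present in every cell type, and sex was not given in the sources used here.

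The table held 8944 cells of 10 annotated types, 5925 of them ECs, and 617246 to 3350799 UMIs (unique molecular identifiers, each counting 1 captured transcript) per library. In all, 3 of 8941 barcodes occurred in more than 1 library. Each list of cell type markers was highest in the type of its name, except that ECs form 3 annotated groups, tip, structural and proliferative, which ranked as the highest 3 for the EC markers. Nos3 was counted at 26.5 ± 8.94 CPM (SD, n = 3) in eNOS+/+ ECs and 23.3 ± 8.55 CPM (n = 3) in eNOS-/- ECs. CPM are UMIs per 1000000 UMIs summed over the cells of a type in a replicate. The tags come from the 3′ ends of transcripts, and the disrupted stretch of Nos3 is not given in the sources used here, so this level does not check the labels. One library stood apart: the summed level of 10 mural markers was 2492 CPM in the ECs of eNOS-/- replicate 3 and 24.3 to 97.7 CPM in the ECs of the other 5 replicates. The same replicate had the fewest ECs, 288 against 499 to 2266.

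As background, the family divides by place and function. Selenoprotein P, encoded by Selenop, is secreted and carries selenium between tissues, and is taken up through receptors of the low-density lipoprotein receptor family, of which Lrp8 is the best known. The glutathione peroxidases reduce peroxides with glutathione: GPX1 in the cytosol, GPX3 outside the cell and GPX4 on membrane lipids. Thioredoxin reductase 1 (Txnrd1) keeps thioredoxin reduced in the cytosol. SELENOK, SELENOF and SELENOT reside in or on the endoplasmic reticulum, and SELENOW is a small cytosolic protein.

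The selenocysteine codon is what the 9 genes share, and Selenop stands out by the number of such codons. Its annotated coding sequence of 380 codons held 10 in-frame TGA codons, at codons 59, 259, 277, 318, 330, 352, 366, 368, 375 and 377, so that 9 of the 10 lie in exon 5. Each of the other 8 genes held 1. The following stretches of coding sequence (GENCODE annotation, GRCm38) show this codon in capitals with its flanks, 5′ to 3′ on the coding strand, for the single codon of the amino-terminal part of Selenop, for its dense carboxy-terminal part, in which a second in-frame tga follows after 1 intervening codon, and for 3 enzymes with a single site.
Selenop, codon 59 (chr15:3274833-3274865, plus strand, exon 2): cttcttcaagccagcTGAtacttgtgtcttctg
Selenop, codon 366 (chr15:3279648-3279680, plus strand, exon 5): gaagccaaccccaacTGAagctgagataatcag
Gpx1, codon 47 (chr9:108339436-108339468, plus strand, exon 1): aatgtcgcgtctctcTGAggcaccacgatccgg
Gpx4, codon 129 (chr10:80054722-80054754, plus strand, exon 3): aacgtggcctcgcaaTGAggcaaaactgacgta
Txnrd1, codon 612 (chr10:82896022-82896042, plus strand, exon 15): ctccagtctggctgcTGAggt
In Txnrd1 the codon is number 612 of 613, the next to last of that coding sequence. Codons are numbered on 1 annotated transcript per gene. It is the one with the most selenocysteine codons and, among those, the longest coding sequence. Other transcripts of the same gene may number the codon differently, so these are not the residue numbers of every form of the protein. The counts do not read these codons, because a UMI records the 3′ end of a transcript and not its translation.

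Selenop (ENSMUSG00000064373.12, chromosome 15, 3268547 to 3280508, plus strand) gave 1253 UMIs in ECs. Its level in all ECs was 46.1, 51.8 and 50.6 CPM in eNOS+/+ replicates 1, 2 and 3. It was 180.5, 270.9 and 59.4 CPM in eNOS-/- replicates 1, 2 and 3. The eNOS+/+ replicates lay close together, eNOS-/- replicates 1 and 2 were well above them, and eNOS-/- replicate 3 was only slightly higher than the highest eNOS+/+ replicate. The groups did not overlap, and the log2 fold change was 1.82 (n = 3 and 3). A non-overlap with eNOS-/- above was found for 5.39% of the 9483 genes tested in all ECs, and because Selenop was picked for this difference nothing is read from it.

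The same pattern of 2 high replicates and 1 low replicate recurred in each EC group. In tip ECs, the leading cells of sprouts, Selenop was at 27.7, 69.4 and 37.9 CPM in eNOS+/+ and at 171.5, 307.4 and 28.1 CPM in eNOS-/- replicates 1, 2 and 3. These groups overlapped, since eNOS-/- replicate 3, with 4 UMIs, fell among the eNOS+/+ values, and the log2 fold change was 2.14. In structural ECs, the largest of the 3 groups, Selenop was at 64.9, 44.5 and 69.3 CPM in eNOS+/+ and at 232.2, 298.7 and 82.2 CPM in eNOS-/-. There the groups did not overlap, as for 5.74% of the genes tested, and the log2 fold change was 1.76. In proliferative ECs it was at 29.0, 45.0 and 15.8 CPM in eNOS+/+ and at 98.7, 174.0 and 38.4 CPM in eNOS-/-, of which the last value rests on 3 UMIs. These groups overlapped, with a log2 fold change of 2.03. Without eNOS-/- replicate 3 the log2 fold change in all ECs was 2.17, and without eNOS-/- replicate 2 it was 1.35.

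**Figure D1:**
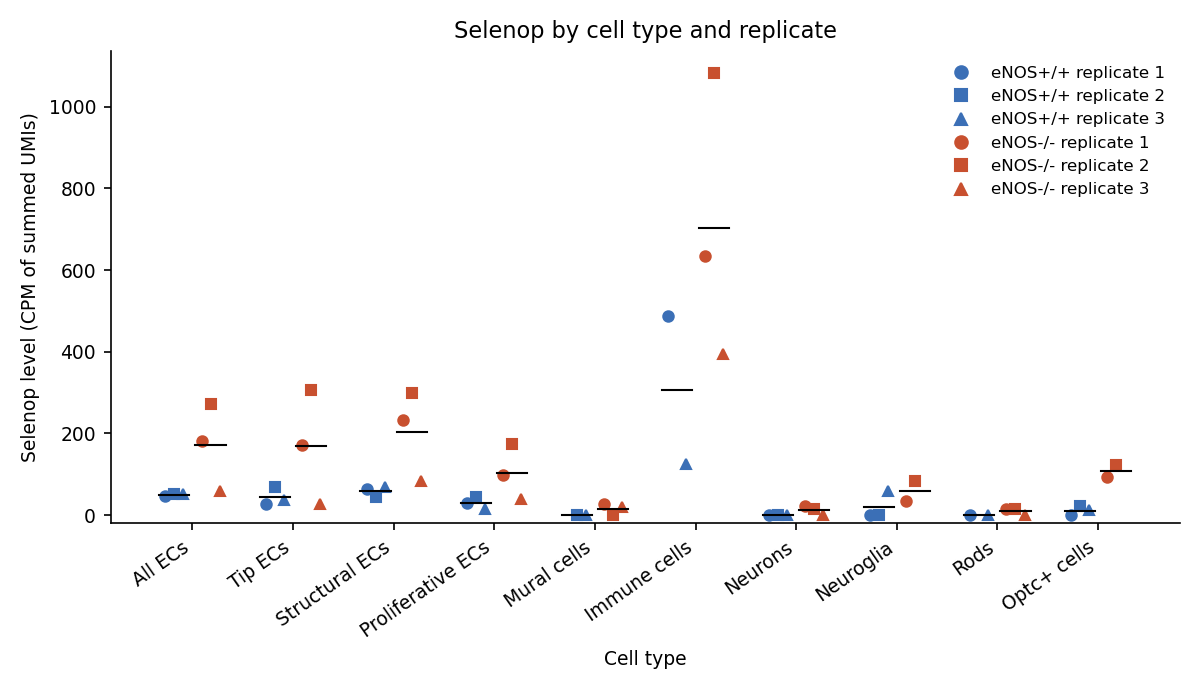
Selenop level (vertical axis, CPM of summed UMIs) by cell type, with 1 point per replicate of at least 10 cells, blue for eNOS+/+, red for eNOS-/-, and a black line at the mean of each genotype. Replicates 1 and 2 of eNOS-/- lie above the eNOS+/+ replicates in all ECs and in each EC group, replicate 3 of eNOS-/- lies near or among the eNOS+/+ replicates, and immune cells reach 1083 CPM.

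The difference was spread over many cell barcodes rather than carried by a few. A Selenop UMI was found in 5.41%, 5.66% and 5.40% of the ECs of eNOS+/+ replicates 1, 2 and 3 (95% Wilson intervals 3.75 to 7.76, 3.99 to 7.97 and 4.21 to 6.91%). In eNOS-/- replicates 1 and 2 the share was 19.5% (17.4 to 21.8%) and 16.9% (15.4 to 18.5%), and in replicate 3 it was 6.94% (4.54 to 10.5%). These intervals describe each replicate and are not a comparison of the genotypes. The 10 ECs with the most Selenop UMIs held 15.8% and 8.68% of all Selenop UMIs in eNOS-/- replicates 1 and 2, and 31.2 to 65.5% in the other replicates, which had far fewer UMIs. ECs with 3 or more Selenop UMIs numbered 3, 1 and 3 in eNOS+/+ and 40, 71 and 0 in eNOS-/-, and the highest count in 1 cell was 12. Intervals cover counting error only and take each barcode as a separate cell. Some barcodes of a replicate and type matched in all but the last base, here called a barcode family. Keeping the deepest of each family left 411 of 499, 391 of 530 and 822 of 1092 ECs in eNOS+/+. It left 900 of 1250, 1815 of 2266 and 216 of 288 ECs in eNOS-/- replicates 1, 2 and 3. The shares and intervals were not recomputed on that choice, so the intervals may be too narrow.

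Depth per cell differed between replicates, and ECs with a Selenop UMI were deeper than the rest in every replicate (a median of 1782 to 2945 UMIs against 352 to 860.5). The median EC had 794, 796 and 782.5 UMIs in eNOS+/+ and 1097.5, 418 and 800 UMIs in eNOS-/-. With each cell drawn down to 500 UMIs, which kept 3545 of 5925 ECs, the share with a Selenop UMI was 1.97%, 2.93% and 2.55% in eNOS+/+ and 8.62%, 12.1% and 3.26% in eNOS-/-. The same 2 replicates of eNOS-/- were thus the highest at equal depth, in the opposite order to each other. They also had the most ECs, 1250 and 2266, and the most EC UMIs, 2315607 and 2425603 against 488367 to 1522739 in the others. The part of library size in the difference was not tested. In rods, photoreceptors that serve here as a type with little Selenop, the unthinned share was 0.398% of 1508 cells. Medians were 250 to 425 UMIs per rod. At 500 UMIs the share was 0.609% of the 421 rods with at least that depth, so these shares are not of the same cells.

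**Figure D2:**
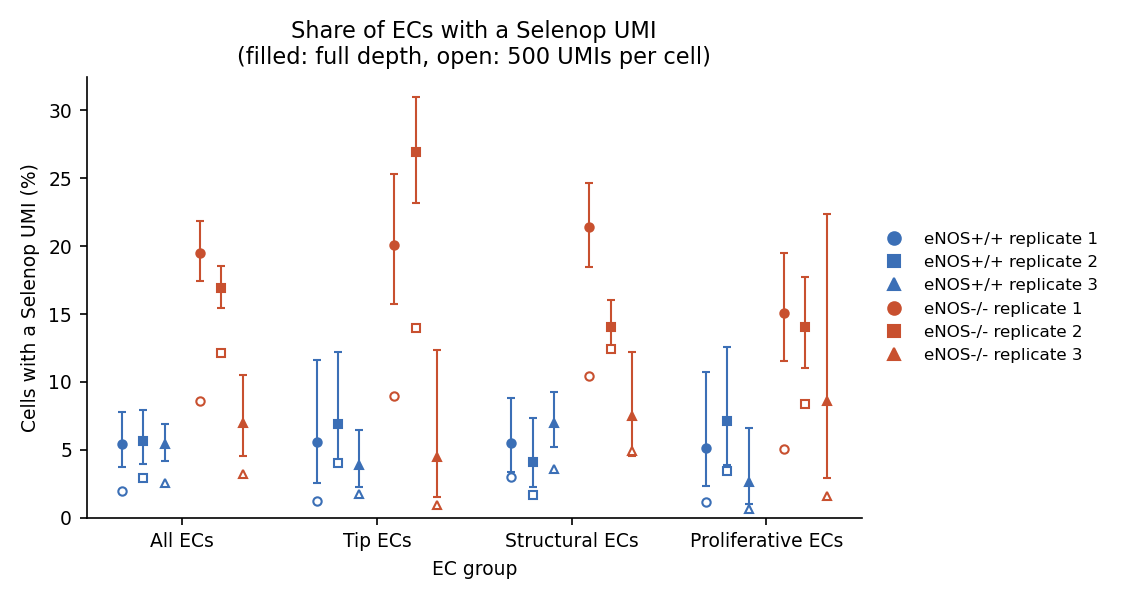
Share of ECs with a Selenop UMI (vertical axis, percent) in all ECs and the 3 EC groups, by replicate, at full depth (filled points, with 95% Wilson intervals) and with each cell drawn down to 500 UMIs (open points). In all ECs replicates 1 and 2 of eNOS-/- are at 19.5% and 16.9%, and the other 4 replicates between 5.40% and 6.94%.

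Levels of the markers of other cell types in ECs are set beside these values. The 12 immune markers summed to 67.9, 375 and 91.9 CPM in the ECs of eNOS+/+ and to 53.1, 107 and 63.5 CPM in those of eNOS-/-, and were highest in eNOS+/+ replicate 2. The 6 B cell markers summed to 142, 47.2 and 41.4 CPM in eNOS+/+ and to 210, 166 and 248 CPM in eNOS-/-, higher in every eNOS-/- replicate. Only Cd79b was at 0, in eNOS+/+ replicates 2 and 3. The part of these markers in the difference was not tested beyond the values given here. Within the ECs of eNOS-/-, those with a Selenop UMI had B cell markers at 11.3, 31.9 and 22.5 CPM, and those without one at 314, 251 and 270 CPM. The 9 neuroglia markers, a list with genes such as Vim that ECs also express, summed to 1972, 2155 and 2501 CPM in eNOS+/+ and to 2635, 2699 and 2611 CPM in eNOS-/-. Of these, Aqp4 was at 0 in 5 of 6 replicates and Gfap in 4. In eNOS-/-, ECs with a Selenop UMI had these markers at 2388, 2527 and 2569 CPM. Those without one had them at 2764, 2808 and 2615 CPM. In eNOS+/+ the values were 1591, 1743 and 2817 CPM with one and 2020, 2210 and 2465 CPM without. The immune markers showed no single direction. With a Selenop UMI they were at 53.75, 52.0 and 192.5 CPM in eNOS+/+ and at 42.85, 107.3 and 135.2 CPM in eNOS-/-. Without one they were at 69.7, 417.5 and 80.5 CPM in eNOS+/+ and at 58.5, 106.5 and 56.3 CPM in eNOS-/-. Leaving out ECs with 2 or more UMIs of immune, mural or B cell markers gave a log2 fold change of 1.80 for Selenop in all ECs. The part of the neuroglia markers in the difference was not tested.

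The mural markers were at 25.5 and 97.7 CPM in eNOS-/- replicates 1 and 2, which had the highest Selenop, and at 2492 CPM in replicate 3. The 8 pigment epithelium markers summed to 0, 1.523 and 4.597 CPM in the ECs of eNOS+/+ and to 5.61, 19.4 and 0 CPM in those of eNOS-/-, so that the 2 replicates with the highest Selenop also had the highest sums. Leaving out the ECs with any of these UMIs, 11 and 40 in those replicates, gave 181.3 and 268.4 CPM of Selenop there, and a log2 fold change of 1.81. The red blood cell markers ranged from 24.3 to 8529 CPM in eNOS+/+ and from 2234 to 4157 CPM in eNOS-/-, and the markers of rods, cones, neurons, Optc+ cells and fibroblasts also overlapped between the genotypes. Another gene, Ccdc152, lies on the opposite strand and shares 439 bases with Selenop. Its level in ECs was 43.7, 24.4 and 95.9 CPM in eNOS+/+ and 47.9, 42.5 and 43.0 CPM in eNOS-/-, and the counting is not stated to use strand, so UMIs of the shared stretch could belong to either gene.

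Over cell types, Selenop was highest in immune cells, the microglia and macrophages of the retina, at 544.7 ± 353.8 CPM (SD, n = 5). By replicate it was at 487 and 125 CPM in eNOS+/+ replicates 1 and 3, which rest on 4 and 3 UMIs, and at 634, 1083 and 394 CPM in eNOS-/- replicates 1, 2 and 3. The groups overlapped, eNOS-/- replicate 2 was highest as it was in ECs, and replicate 2 of eNOS+/+ had 1 immune cell and was left out. The log2 fold change in immune cells was 1.80 (SE 0.80, 95% interval -0.07 to 3.67), which did not pass the test (adjusted p = 0.796, edgeR's quasi-likelihood test). Leaving out eNOS+/+ replicate 1 gave 2.71, and leaving out eNOS+/+ replicate 3 gave 1.10. Structural ECs (132 ± 106 CPM, n = 6), tip ECs (107 ± 112) and proliferative ECs (66.8 ± 59.7) followed.

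The immune cells also held markers of other types, and did so unevenly. The pigment epithelium markers were all at 0 in both eNOS+/+ replicates and in eNOS-/- replicate 3, and summed to 2413 and 10900 CPM in eNOS-/- replicates 1 and 2, the 2 with the highest Selenop. The B cell markers were at 0 and 249 CPM in eNOS+/+ and at 565, 871 and 722 CPM in eNOS-/-. Without the 5 and 11 immune cells that held a pigment epithelium UMI, Selenop was at 668.0 and 966.6 CPM in eNOS-/- replicates 1 and 2, and its log2 fold change was 1.68. The part of the B cell markers was not tested.

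Below the ECs, Selenop was at 49.8 ± 54.9 CPM in Optc+ cells (n = 5), a type named for opticin, and at 35.6 ± 36.7 CPM in neuroglia (n = 5). In Optc+ cells it was at 0, 21.2 and 11.3 CPM in eNOS+/+ and at 93.2 and 123.3 CPM in eNOS-/- replicates 1 and 2, on 11 UMIs in all. The groups did not overlap, as for 11.4% of the genes tested in these cells. Selenop itself had too few UMIs there to be tested. The 0 UMIs of eNOS+/+ replicate 1 allow up to 178.2 CPM, above both eNOS-/- values. A separation was thus not detectable at this depth. The pigment epithelium markers summed to 0, 42.5 and 90.6 CPM in the eNOS+/+ Optc+ cells and to 5218 and 5178 CPM in those of eNOS-/-. Without the cells that held such a UMI, Selenop was at 0, 23.4 and 15.5 CPM in eNOS+/+ and at 55.3 and 95.5 CPM in eNOS-/-, the latter on 1 and 3 UMIs. Mural cells, neurons and rods gave 4, 7 and 6 UMIs. The 4 of mural cells came from eNOS-/- replicates 1 and 3, and the 7 of neurons from eNOS-/- replicates 1 and 2. Neuroglia gave 1 UMI in eNOS+/+ and 6 in eNOS-/-. More of these cells were from eNOS-/-, with 140 against 74 mural cells, 520 against 170 neurons and 119 against 65 neuroglia. In rods all 6 came from eNOS-/- replicates 1 and 2, and the 0 UMIs of eNOS+/+ replicate 1 allow up to 14.8 CPM, close to the 15.5 and 13.6 CPM of those replicates, so no difference was detectable at this depth. Each type's range over replicates overlapped that of the type next above it, but these ranges also hold the differences between replicates and genotypes. Within each replicate used, immune cells were above structural ECs. In eNOS+/+ replicates 1 and 3 they were at 487 and 125 CPM, on 4 and 3 UMIs, against 64.9 and 69.3 CPM. In eNOS-/- replicates 1, 2 and 3 they were at 634, 1083 and 394 CPM against 232.2, 298.7 and 82.2 CPM. The cell types were defined from the same UMIs, and these levels are a description without a test.

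The genes whose pattern over 50 sums of a cell type in a replicate was most like that of Selenop were Blvrb (r = 0.763), Sec11c (0.753), Cyth4 (0.730), Trf (0.726) and H2-K1 (0.713). The measure was Pearson's r of log2(CPM + 10) among 4166 genes with a mean of at least 50 CPM, and the sums share libraries and depth. Blvrb encodes a biliverdin reductase, Sec11c a subunit of the signal peptidase, Trf transferrin and H2-K1 a class I histocompatibility protein. In immune cells their means were 612, 313, 422, 1060 and 542 CPM in the same order. In all ECs Trf was at 124, 142 and 162 CPM in eNOS+/+ and at 158, 207 and 176 CPM in eNOS-/-. Blvrb was at 37.6, 30.5 and 28.9 CPM in eNOS+/+ and at 42.8, 40.0 and 41.0 CPM in eNOS-/-. Its spread was smaller than that of Selenop. Sec11c was at 204, 225 and 179 CPM in eNOS+/+ and at 235, 259 and 272 CPM in eNOS-/-. The groups of Blvrb and of Sec11c did not overlap, as for 5.39% of the genes tested in all ECs. Those of Cyth4, Trf and H2-K1 overlapped. These 5 genes were chosen for likeness to Selenop over sums that include the ECs, so nothing is read from their EC values.

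The receptors of selenoprotein P were measured in the same cells. Lrp8 was at 372 ± 26.2 CPM (n = 6) in all ECs, with 337, 393 and 351 CPM in eNOS+/+ and 404, 386 and 362 CPM in eNOS-/-. These groups overlapped, and its log2 fold change of 0.09 (SE 0.18) did not pass the test (adjusted p = 0.98, edgeR). Its lowest replicate in any EC group was at 284 CPM. In mural, immune, neuroglia and Optc+ cells its highest replicate was at 124 CPM, while 1 replicate of neurons reached 386 CPM and 1 of rods 190.5 CPM. Lrp1 and Lrp2, related receptors named here after their values were seen, were low in ECs and highest in other types. Lrp1 was at 244 ± 69.1 CPM in immune cells and 3.62 ± 4.57 CPM in all ECs, and Lrp2 was at 102 ± 41.0 CPM in Optc+ cells and 1.88 ± 1.86 CPM in all ECs. Immune cells, the type with the highest Selenop, thus had Lrp8 at 9.76 ± 13.6 CPM (n = 5).

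Gpx3, the secreted glutathione peroxidase, was concentrated in few types. In tip ECs it was at 46.1, 42.7 and 35.8 CPM in eNOS+/+ and at 49.9, 47.5 and 0 CPM in eNOS-/- replicates 1, 2 and 3. The 0 UMIs of replicate 3 allow up to 21.0 CPM, so the other 5 tip EC values lay above that limit. In structural ECs no replicate exceeded 9.98 CPM and in proliferative ECs none exceeded 10.1 CPM, below every tip EC value other than that of eNOS-/- replicate 3. Higher means were found in Optc+ cells (63.4 ± 63.1 CPM, n = 5, 18 UMIs) and immune cells (62.2 ± 54.4 CPM, n = 5, 13 UMIs), with single replicates at 164 and 149 CPM and others at 0. In immune cells the 3 eNOS-/- replicates were at 55.1, 148.7 and 65.6 CPM, against 0 and 41.5 CPM in eNOS+/+, on too few UMIs for a test. Of the genes tested there 5.82% were likewise higher without overlap. The 0 UMIs of eNOS+/+ replicate 1 allow up to 365.5 CPM, above all 3 eNOS-/- values. A separation was thus not detectable at this depth. The 164 CPM of Optc+ cells, in eNOS-/- replicate 2, came from 8 UMIs, all in cells that also held a pigment epithelium UMI, and was 0 without them. Neurons gave 0 UMIs in all 6 replicates, rods 1 and neuroglia 1. Between genotypes the log2 fold change was -0.11 (SE 0.45) in all ECs and -0.03 (SE 0.52) in tip ECs, with adjusted p of 0.99 and 0.999 by edgeR. The low value of eNOS-/- replicate 3 rests on 1 UMI in all ECs.

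Gpx1, the cytosolic glutathione peroxidase, was counted throughout the vasculature. In all ECs it was at 544, 590 and 495 CPM in eNOS+/+ and at 397, 486 and 604 CPM in eNOS-/-, and the groups overlapped, with eNOS-/- replicate 3 highest of all 6. The log2 fold change was -0.14 (SE 0.21, 95% interval -0.59 to 0.31, adjusted p = 0.976, edgeR). Over cell types it was highest in immune cells (911 ± 608 CPM, n = 5), with replicates from 366 to 1903 CPM. The 3 EC groups had means of 554, 518 and 496 CPM in proliferative, structural and tip ECs, too close to be told apart by their spread. Neuroglia (122 ± 138 CPM), neurons (106 ± 62.3 CPM) and rods (96.3 ± 46.2 CPM) were lowest, and the highest neuron and rod replicates, at 193 and 143 CPM, lay below the lowest replicate of every EC group, 353 CPM.

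In mural cells, the pericytes and smooth muscle cells of vessels, Gpx1 was at 99.3 and 382 CPM in eNOS+/+ replicates 2 and 3 and at 382, 613 and 477 CPM in eNOS-/- replicates 1, 2 and 3. The groups did not overlap by a narrow margin, 381.7 against 382.3 CPM, and the value of 99.3 CPM rests on 2 UMIs. Among the genes tested in mural cells 11.2% had every eNOS-/- replicate above every eNOS+/+ replicate, and the log2 fold change of 1.05 (SE 0.53, 95% interval -0.05 to 2.14) did not pass the test (adjusted p = 0.814, edgeR).

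Gpx4, which repairs oxidised membrane lipids, was counted sparsely. In all ECs it was at 26.7, 18.3 and 7.22 CPM in eNOS+/+ and at 22.5, 27.6 and 8.19 CPM in eNOS-/-, a similar range in both groups. Its log2 fold change was 0.40 (SE 0.46, adjusted p = 0.966, edgeR). Rods gave 108.5, 69.8 and 47.6 CPM in eNOS+/+ replicate 1 and eNOS-/- replicates 1 and 2, above all EC values of the same replicates, and 0 in the 2 shallow replicates of 20998 and 7184 UMIs. Immune cells had a mean of 45.4 ± 50.8 CPM on 5 UMIs. In Optc+ cells it was at 0, 21.2 and 11.3 CPM in eNOS+/+ and at 31.1 and 102.7 CPM in eNOS-/-. These did not overlap, as for 11.4% of the genes tested in these cells, but on 8 UMIs, too few for a test. The 0 UMIs of eNOS+/+ replicate 1 allow up to 178.2 CPM, above both eNOS-/- values. A separation was thus not detectable at this depth. Without the cells that held a pigment epithelium UMI Gpx4 was at 55.3 and 31.8 CPM in eNOS-/-, on 1 UMI each. The annotation holds 1 gene named as a copy of Gpx4, 6 of Selenok and 1 of Selenot, none of them in the count table, so that the levels of these 3 genes are uncertain where reads could come from a copy.

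Txnrd1, whose enzyme keeps thioredoxin reduced, was at 142, 120 and 98.5 CPM in eNOS+/+ ECs and at 115, 89.9 and 127 CPM in eNOS-/- ECs, with overlap. Its log2 fold change was -0.14 (SE 0.22, adjusted p = 0.978, edgeR). Immune cells had the highest mean, 204 ± 99.5 CPM (n = 5), and Optc+ cells followed at 134 ± 67.3 CPM. Neurons (27.7 ± 29.3 CPM) and rods (23.7 ± 17.7 CPM) were lowest, and their highest replicates, 79.0 and 47.6 CPM, are set against 77.1 CPM in the lowest replicate of any EC group, so the rods lay below all EC values and neurons almost so.

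Among the proteins of the endoplasmic reticulum, Selenof was the most frequently counted. It was at 485, 550 and 477 CPM in eNOS+/+ ECs and at 404, 437 and 545 CPM in eNOS-/- ECs, again with overlap. Its mean was highest in mural cells (635 ± 281 CPM, n = 5) and tip ECs (565 ± 97.9 CPM, n = 6), and lowest in rods (185 ± 35.7 CPM, n = 5), where the highest replicate, 238 CPM, was below every EC value. Selenok was at 209, 225 and 199 CPM in eNOS+/+ ECs and at 158.5, 221 and 235.5 CPM in eNOS-/- ECs. Mural cells (258 ± 21.6 CPM) and tip ECs (245 ± 25.6 CPM) had its highest means and a narrow spread, and tip ECs, with no replicate below 208 CPM, were above 5 of the 6 proliferative EC replicates. Selenot was at 115, 131 and 115 CPM in eNOS+/+ ECs and at 140, 123 and 94.2 CPM in eNOS-/- ECs. Its highest mean, 242 ± 333 CPM in rods, was set by eNOS-/- replicate 3, at 835 CPM on 6 UMIs, while the other 4 rod replicates were at 54.3 to 143 CPM. In immune cells it was at 0 and 41.5 CPM in eNOS+/+ and at 138, 106 and 394 CPM in eNOS-/-. These values did not overlap, on 22 UMIs, too few for a test. The share of tested genes higher without overlap there is the 5.82% given for Gpx3. The 0 UMIs of eNOS+/+ replicate 1 allow up to 365.5 CPM, above the 138 and 106 CPM. A separation of Selenot was thus not detectable at this depth. The log2 fold changes in all ECs were -0.13 (SE 0.20) for Selenof, -0.06 (SE 0.21) for Selenok and 0.00 (SE 0.20) for Selenot, with adjusted p from 0.976 to 0.999 by edgeR.

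Selenow showed a distribution unlike that of Gpx1. Neuroglia (617 ± 395 CPM, n = 5), mural cells (482 ± 101 CPM, n = 5) and neurons (450 ± 103 CPM, n = 6) had its highest means, and the EC groups lay between 228 and 288 CPM. The neuroglia mean includes eNOS+/+ replicate 2 at 1293 CPM, from 10 cells with 6962 UMIs of all genes. The median over the neuroglia replicates was 500 CPM. All 5 mural replicates, at 404 CPM or more, were above all tip EC values, of which the highest was 401 CPM. In all ECs it was at 189, 376 and 287 CPM in eNOS+/+ and at 239, 207 and 281 CPM in eNOS-/-, with a log2 fold change of -0.24 (SE 0.24, adjusted p = 0.964, edgeR). In Optc+ cells it was at 59.4, 212 and 238 CPM in eNOS+/+ and at 280 and 349 CPM in eNOS-/- replicates 1 and 2. These did not overlap, the same 11.4% of genes tested serving as background, and the log2 fold change of 0.73 (SE 0.58) did not pass the test (adjusted p = 0.785, edgeR). Without the cells that held a pigment epithelium UMI the groups overlapped, with 279.5 CPM in eNOS+/+ replicate 3 and 221.3 CPM in eNOS-/- replicate 1.

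**Figure D3:**
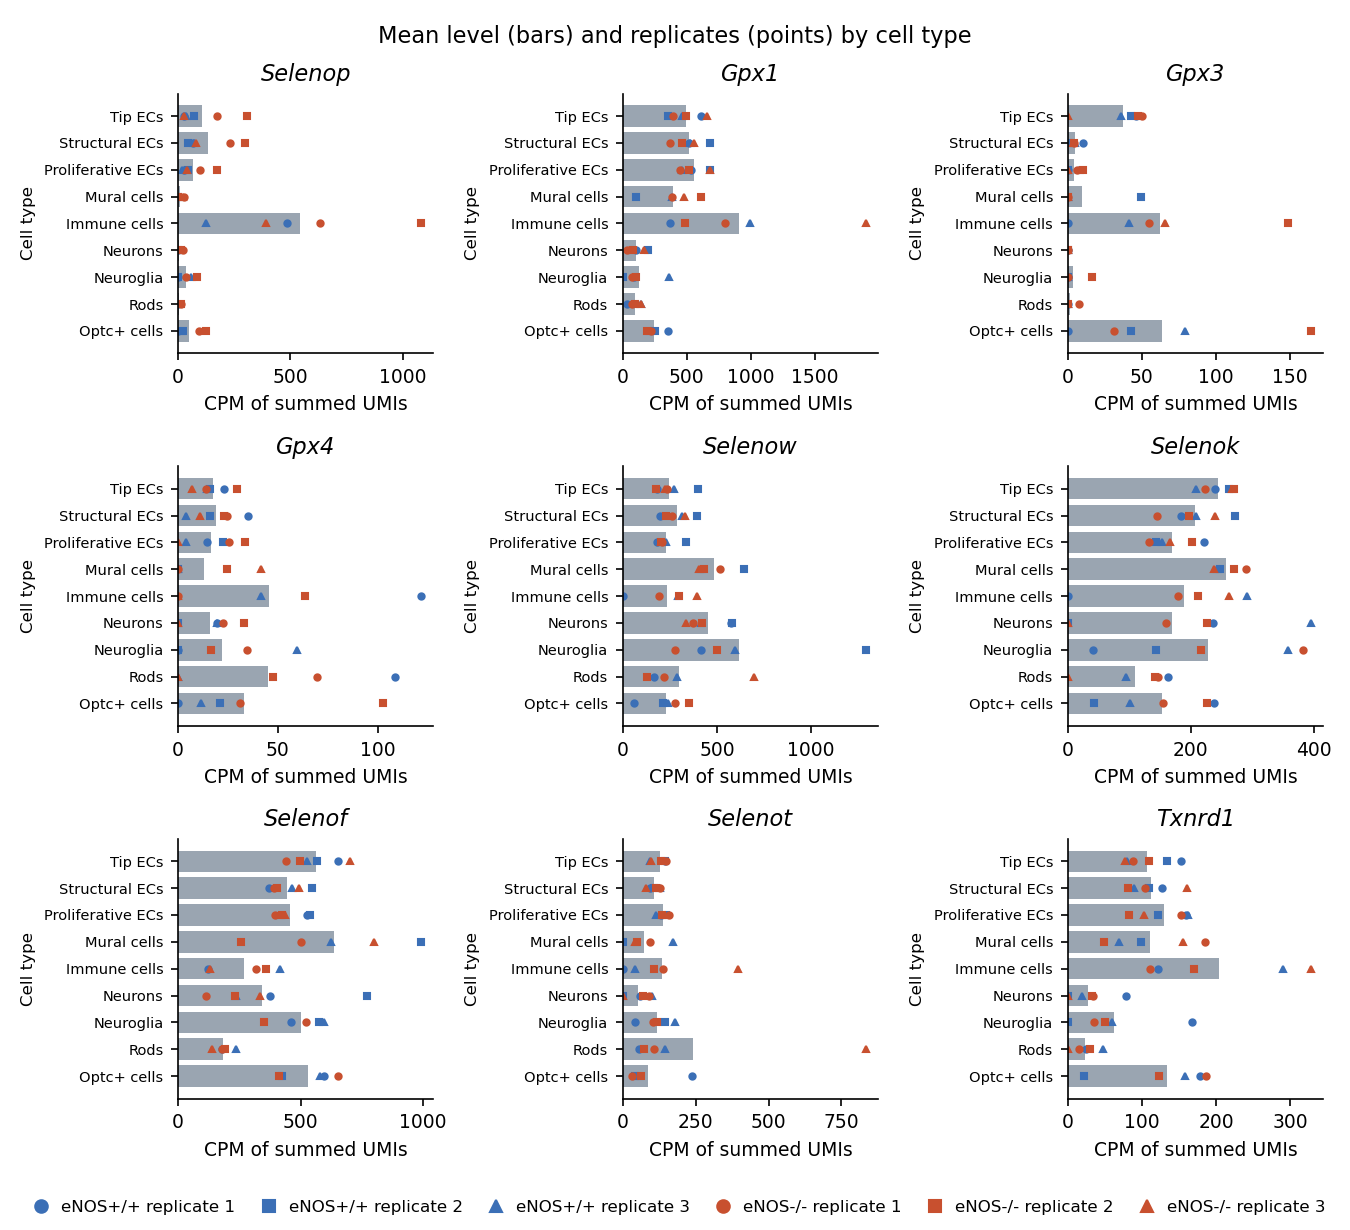
Level of each of the 9 genes (horizontal axis, CPM of summed UMIs, a scale of its own for each gene) in 9 cell types, with bars for the mean over replicates of at least 10 cells and points for the replicates. Selenop, Gpx1 and Txnrd1 have their highest mean in immune cells, Gpx3 in Optc+ and immune cells with tip ECs next, and Selenow in neuroglia. The last includes a replicate of 10 cells at 1293 CPM.

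By genotype, 0 of the 8 members other than Selenop passed an adjusted p of 0.05 in all ECs in edgeR's quasi-likelihood test over all genes, where 2 of 9483 genes, 0.0211%, did. At an unadjusted p under 0.05 there were 548 genes, 5.78% of those tested, and 0 of these 8 members. DESeq2 on the same sums also called 0 of them. They had a median log2 fold change of -0.12 in all ECs against 0.01 over all genes, 2 above and 6 below 0, from -0.24 to 0.40. Members other than Selenop also gave 0 calls in tip ECs (7 tested, background 0.0181%), structural ECs (7 tested, 0.0264%) and proliferative ECs (6 tested, 0.0217%), by edgeR and by DESeq2, and 0 of them were at an unadjusted p under 0.05. None of them differed without overlap in an EC comparison, where 4.94% of the genes tested in tip ECs and 5.36% in proliferative ECs were higher in this way.

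**Figure D4:**
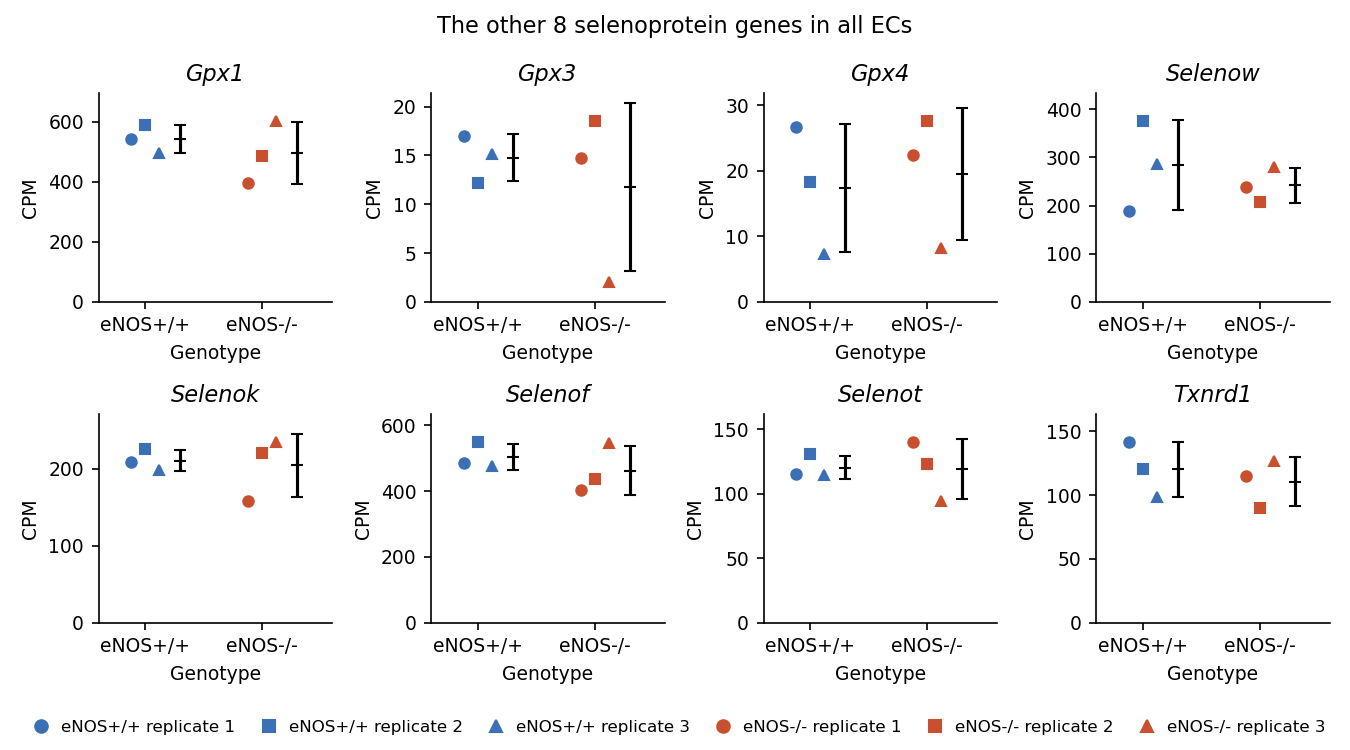
Levels of the other 8 genes in all ECs (vertical axis, CPM, from 0) for the 3 eNOS+/+ (blue) and 3 eNOS-/- (red) replicates, with black marks for mean and SD. The genotypes overlap in all 8 panels, and eNOS-/- replicate 3 is low for Gpx3 and high for Gpx1.

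Outside the ECs the tests covered fewer members, because fewer UMIs passed the filter. No member passed in mural cells (5 tested, background 0%), immune cells (2 tested, 0%), neurons (3 tested, 0%), neuroglia (2 tested, 0%), rods (5 tested, 0.032%) or Optc+ cells (4 tested, 2.06%). The numbers of genes of any kind at an unadjusted p under 0.05 were 114, 21, 41, 28, 37 and 124 in the same order, and no member was among them. DESeq2 called no member in any of these types. Cones could not be tested, since 1 replicate had at least 10 of them.

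**Figure D5:**
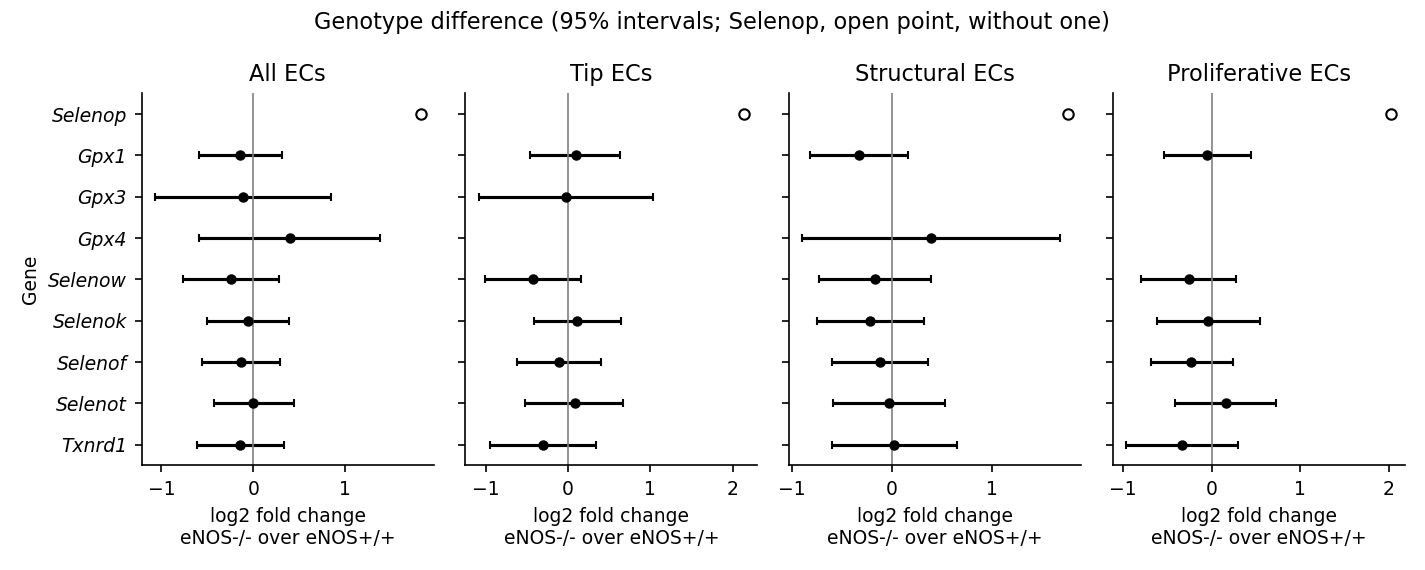
Log2 fold change of eNOS-/- over eNOS+/+ (horizontal axis) for the members tested in all ECs and the 3 EC groups, with 95% intervals from edgeR's fit for the 8 genes other than Selenop. The intervals of these genes include 0 in each comparison, and the open points of Selenop lie at 1.82, 2.14, 1.76 and 2.03.

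The other genes of selenium metabolism were taken from lists chosen by function. Of 15 further selenoprotein genes 13 were in the table and 7 were tested in all ECs, where 0 passed, with a median log2 fold change of -0.16. The 3 with the most UMIs were Selenoh (285, 360 and 233 CPM in eNOS+/+, 276, 240 and 240 CPM in eNOS-/-), Selenom and Selenos, with log2 fold changes of -0.21, -0.10 and -0.09. Of 11 genes for selenocysteine synthesis and selenium supply 7 were tested in all ECs and 0 passed, with a median of -0.09. Secisbp2l, a relative of the protein that binds the selenocysteine insertion element, was at 65.5, 65.5 and 54.5 CPM in eNOS+/+ and at 59.6, 66.0 and 43.0 CPM in eNOS-/-. Trnau1ap, a protein associated with the selenocysteine tRNA, was at 61.8, 38.1 and 49.9 CPM in eNOS+/+ and at 34.1, 31.3 and 59.4 CPM in eNOS-/-.

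Of 22 other antioxidant genes 19 were tested in all ECs and 0 passed, with 11 above and 8 below 0 and a median of 0.04. Prdx1, a peroxiredoxin, Txn1, the substrate of thioredoxin reductase 1, and Sod1, a superoxide dismutase, had log2 fold changes of -0.22, -0.11 and 0.04, with adjusted p from 0.964 to 0.993 by edgeR. At an unadjusted p under 0.05 were 2 of these 19 genes, against 5.78% of all genes, and they are named after their values were seen. Gclm, a subunit of the enzyme of the first step of glutathione synthesis, was at 141, 116 and 106 CPM in eNOS+/+ and at 85.1, 58.1 and 86.0 CPM in eNOS-/-. Gsr, which reduces oxidised glutathione, was at 44.9, 41.1 and 31.5 CPM in eNOS+/+ and at 25.9, 24.3 and 22.5 CPM in eNOS-/-. Neither overlapped between genotypes, as for 5% of the genes tested, which were lower in every eNOS-/- replicate, and neither passed the test (adjusted p = 0.824 for both, edgeR).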

How the data were processed

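The authors quantified Drop-seq reads with kb-python on GRCm38. They dropped cells under 100 genes or above 10% mitochondrial UMIs, took out red blood cell and pigment epithelium clusters, and named cell types with Seurat (version 3 per the labels) after integrating replicates, EC groups without integration. The deposited table holds raw UMI counts per gene and cell, and the deposited metadata give each cell's type and replicate, its total count and its percent of mitochondrial UMIs. Both limits held in the files, and how doublets were treated before deposit was not tested here. UMIs were summed per type and replicate, and sums of at least 10 cells were used, with CPM as the level and SD over replicates. Genotypes were compared with edgeR 4.0.16 (filterByExpr, TMM, quasi-likelihood test, Benjamini-Hochberg adjustment over all genes tested, limit 0.05), with at least 2 replicates per genotype, in R 4.3.3. The SE is the size of the log2 fold change over the square root of F. DESeq2 1.42.0 and further settings were alternatives, and the fit was tested on simulated data. Samples were grouped by the genotype in the labels. Replicates are separate pools of retinas. A count of 0 was taken to allow up to 3 UMIs. Coordinates and coding sequences come from GENCODE for GRCm38, in Python 3.11.15 with scipy 1.17.1. The members and lists were chosen with earlier results of these data known. Named are the 9 members, the 3 list genes of highest mean CPM in all ECs, any that passed, and the 5 genes most like Selenop.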

Additional observations from a re-analysis of the deposited data

How the results depend on the processing

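Selenop stayed above 0 on the log2 scale in all ECs under every alternative, from 1.59 to 1.85, and from 1.35 to 2.17 when each replicate was left out in turn. Selenop was chosen for this difference, so nothing is read from the settings in which it passed. The count of members that passed was 0 in the tests as reported and 1, Selenop, in all ECs and structural ECs with DESeq2 and in all ECs, tip, structural and proliferative ECs with no filter on low counts. It was also 1 in structural ECs with the replicate number as a block and in proliferative ECs with 1 cell per barcode family. With each replicate left out in turn it ranged from 0 to 1 in all 4 EC comparisons, and was 1 only without eNOS-/- replicate 3. In the other 6 types it was 0 under all alternatives. The numbers do not mark shared animals, and correlations of same-numbered replicates were 0.132, -0.070 and 0.114. Genes of any kind that passed numbered 2 in all ECs, 1 in tip, 2 in structural and 1 in proliferative ECs, ranging from 0 to 78, 0 to 25, 0 to 28 and 0 to 73 with a replicate left out (the highest without eNOS-/- replicate 3), and from 1 to 84, 1 to 8, 0 to 74 and 1 to 10 otherwise (the highest with no filter). In Optc+ cells the 23 genes ranged from 2 to 35, and in the other 5 types, with 0 or 1, from 0 to 8. Leaving out cells with a pigment epithelium UMI, chosen after the data were seen, left 3 genes in Optc+ cells and gave 0 members that passed in every comparison. The mean share of eNOS+/+ ECs with a Selenop UMI was 2.48% at 500 UMIs against 5.49% at full depth. The share fell in eNOS-/- as well. With the cells of a genotype pooled it was 2.52% against 5.47% in eNOS+/+ and 9.84% against 17.0% in eNOS-/-. Among small log2 fold changes in all ECs the sign turned for Selenot with the replicate block (-0.02) and with cells of at least 500 UMIs (-0.02), and for Gpx3 with the latter (0.00). With a replicate left out Gpx1 ranged from -0.31 to 0.02, Gpx3 from -0.49 to 0.13, Gpx4 from -0.07 to 0.92, Selenok from -0.17 to 0.13, Selenot from -0.11 to 0.11 and Txnrd1 from -0.26 to 0.01. The cause was not tested. Where a genotype was left with 1 replicate, that replicate was assumed to vary like the rest. For members with few UMIs depth limits what a difference could show.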

Other observations

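Cones, of which 1 replicate had at least 10 cells, entered no comparison. In that replicate, eNOS-/- replicate 2, its 33 cones gave 9 UMIs each of Selenok and Selenof, 4 of Gpx1, 2 each of Selenow and Selenot and 1 of Selenop, and none of Gpx3, Gpx4 or Txnrd1. In the 6 cones of eNOS+/+ replicate 1 there were 6 UMIs of Selenow and 2 of Selenok.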
